A study of Mus musculus with 9 samples.

Results

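The nuclear receptors of the ROR and REV-ERB families were followed through hearts of staggerer mice, which carry a mutation in one of them. The 4 genes taken, of 19096 named on the array, were Rora and Rorb, of the ROR family, and Nr1d1 and Nr1d2, which encode REV-ERBalpha and REV-ERBbeta. Every noncontrol probe whose accession belongs to one of these 4 genes was included, 9 of the 41174 probes on the array: 3 for Rora, 2 for Rorb, 3 for Nr1d1 and 1 for Nr1d2. Of these, 8 had at least 4 arrays on which the scanner software called them well above background, as did 36405 probes in all, and were tested. The remaining probe, A_52_P74320 of Rorb, had fewer.

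The hearts came from 4 male RORasg/sg mice, homozygous for the staggerer allele of Rora, and from 5 male wild-type (WT) mice. All 9 mice were labelled C57BL/6, were 3 to 4 months old, had been weaned at 3 weeks onto NIH31 diet and received no treatment. The staggerer allele is a deletion inside Rora that takes out part of the ligand-binding region of RORalpha, and every cell of these animals carries it throughout life. Each heart was hybridised to 1 single-colour array, and the labels do not give the time of day at which hearts were taken.

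RORs and REV-ERBs recognise the same DNA element, a core of AGGTCA preceded by a stretch rich in A and T. RORs recruit coactivators there and raise transcription, whereas REV-ERBs recruit the NCOR1 and HDAC3 corepressor complex and lower it. In the circadian clock this pair sets the rhythm of Arntl, the gene of BMAL1. BMAL1 and its partner CLOCK in turn drive Nr1d1 and Nr1d2 through E-boxes, which closes a stabilising loop. RORalpha is bound by sterols and REV-ERBs by heme, and both families also act on lipid metabolism and inflammation. Rorb is known mainly from brain and retina.

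Promoter windows, taken from RefSeq on GRCm38.p6 (250 bases before to 50 after an annotated start), are shown for both REV-ERB genes, whose mean differences had opposite signs, and for Arntl, the textbook target. Capitals mark the core AGGTCA, its longer form TAGGTCA, which contains it, or the E-box CACGTG, searched on both strands.
Nr1d1 promoter, chr11:98775328-98775627, minus strand: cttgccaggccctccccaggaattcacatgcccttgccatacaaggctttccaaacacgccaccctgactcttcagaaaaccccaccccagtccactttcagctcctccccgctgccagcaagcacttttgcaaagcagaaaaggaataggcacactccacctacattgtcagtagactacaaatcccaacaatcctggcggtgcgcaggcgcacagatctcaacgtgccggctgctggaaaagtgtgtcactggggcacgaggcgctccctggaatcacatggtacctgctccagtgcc
Nr1d2 promoter, chr14:18239057-18239356, minus strand: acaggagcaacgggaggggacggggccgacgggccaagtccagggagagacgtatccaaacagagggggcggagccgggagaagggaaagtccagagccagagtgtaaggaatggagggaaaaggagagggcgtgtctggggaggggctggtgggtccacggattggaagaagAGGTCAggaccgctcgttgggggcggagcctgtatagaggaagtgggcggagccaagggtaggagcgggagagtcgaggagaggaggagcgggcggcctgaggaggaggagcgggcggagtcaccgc
Arntl promoter, chr7:113207261-113207560, plus strand: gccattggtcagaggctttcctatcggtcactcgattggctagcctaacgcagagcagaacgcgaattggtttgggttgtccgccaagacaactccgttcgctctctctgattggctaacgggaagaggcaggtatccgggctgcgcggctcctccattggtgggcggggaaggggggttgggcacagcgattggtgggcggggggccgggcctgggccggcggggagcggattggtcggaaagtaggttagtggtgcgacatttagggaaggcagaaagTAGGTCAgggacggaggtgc
The Nr1d2 window held 1 core, at bases 174 to 179 of the window, and the Arntl window held 1 with the leading T, at bases 281 to 287. Of 32851 promoter windows, 16.3% held AGGTCA, 2.61% held TAGGTCA and 7.15% held CACGTG, so the core alone is common. The window of Nr1d1, the single window of Rora and both windows of Rorb held none of the 3. Arntl has 2 windows in the table, and the one with the match is printed. A match describes the letters of a window, and no binding was measured.

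The arrays were not equally bright, and this touches every value below. The 75th percentile of the deposited processed signal lay between 264 and 773 in RORasg/sg hearts and between 436 and 684 in WT hearts. RORasg/sg 2, 3 and 4 and WT 4 lay under 500 and are called the dimmer arrays, and RORasg/sg 1 with the other 4 WT hearts the brighter ones. The dimmer arrays also stood apart across all probes. Their median correlations with the brighter WT arrays were 0.833, 0.769 and 0.713 for RORasg/sg 2, 3 and 4 and 0.874 for WT 4, against 0.956 for RORasg/sg 1. The median log2 difference of all tested probes, RORasg/sg minus WT, was 0.31 over all arrays, -0.27 within the brighter and 0.44 within the dimmer ones. Ventricular cardiomyocyte markers were present, with all 8 of them detected on every array. Their summed level, in units of each array's 75th percentile, was 218 to 582 in RORasg/sg hearts and 498 to 606 in WT hearts. On the probes summed, all 8 had lower means in RORasg/sg hearts, although a marker among them had another probe that differed by 0.31. The median difference of these 8 markers was -1.14 over all arrays, 0.054 within the brighter and -1.70 within the dimmer arrays. Fibroblast markers summed to 58.6 to 151 in RORasg/sg hearts and 40.02 to 53.8 in WT hearts, with no overlap, although 3 of the 6 had lower and 3 higher means in RORasg/sg hearts. On the probes summed, Col1a1 and Col3a1 differed by 1.67 and 1.51. Other Col1a1 probes differed by 0.0023 to 1.41 and another Col3a1 probe by -0.059. Sums of the other marker lists overlapped between the groups. Endothelial markers summed to 25.9 to 63.8 in RORasg/sg hearts and 21.8 to 36.4 in WT hearts. Of these 6 markers, however, 4 had lower and 2 higher means in RORasg/sg hearts, with a median difference of -1.12. Macrophage and leukocyte markers summed to 8.46 to 17.7 in RORasg/sg hearts and 7.52 to 13.1 in WT hearts. Smooth muscle and pericyte markers summed to 69.4 to 118 in RORasg/sg hearts and 73.2 to 143 in WT hearts, and adipocyte markers to 73.1 to 226 in RORasg/sg hearts and 97.5 to 219 in WT hearts. Atrial markers summed to 5.01 to 10.01 in RORasg/sg hearts and 7.30 to 23.6 in WT hearts. Of these 5 markers, however, 1 had a lower and 4 higher means in RORasg/sg hearts, with a median difference of 0.92. Skeletal muscle markers summed to 13.7 to 18.6 in RORasg/sg hearts and 15.9 to 21.3 in WT hearts. Red cell markers ranged more widely in RORasg/sg hearts, at 1.63 to 22.8, against 6.35 to 11.4 in WT hearts. So did neuron and Schwann cell markers, at 1.83 to 14.5 in RORasg/sg hearts and 2.12 to 4.05 in WT hearts, with 5 of 7 means higher in RORasg/sg hearts. Fewer cardiomyocytes and less RNA per cardiomyocyte cannot be told apart in whole-heart RNA. Neither can be told apart from differences between the arrays, since RORasg/sg 2, 3 and 4 were all on dimmer arrays. The part of these shifts in the results below was not tested.

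Rora, which encodes RORalpha, had lower values in the RORasg/sg group on both of its bright probes, with no overlap with WT. On probe A_51_P477779 the hearts of the RORasg/sg group, 1 to 4, gave deposited signals of 819, 44.6, 194 and 66.3, against 5009, 6295, 4653, 1242 and 4561 in WT hearts 1 to 5. The groups did not overlap, RORasg/sg 1 was the highest of its group and WT 4 the lowest of its own. Scaled to each array's 75th percentile on the log2 scale, the probe averaged -1.41 ± 1.21 in RORasg/sg hearts and 2.72 ± 0.699 in WT hearts (SD, n = 4 and n = 5), which is 17.5-fold less. The log2 difference of -4.13 (SE 0.613, 95% interval -5.47 to -2.79) ranked 2nd by p among 36405 probes, yet its limma adjusted p was 0.296. It did not pass the threshold of 0.05.

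The second bright probe of Rora, A_52_P652442, read 922, 34.6, 85.6 and 12.3 in RORasg/sg hearts 1 to 4, against 6766, 6785, 6301, 1284 and 5505 in WT hearts 1 to 5. The difference between the group means was larger than on the first probe, 40.6-fold, with a log2 difference of -5.34 (SE 0.824, limma adjusted p = 0.296). Both probes were called well above background on all 9 arrays. On A_52_P652442, however, the signal of 12.3 in RORasg/sg 4 was smaller than its local background of 26. The size of the 40.6-fold difference is therefore uncertain. The third probe, A_52_P652950, was dim, at 2.61 to 42.8 in RORasg/sg hearts and 14.6 to 65.0 in WT hearts, and was called above background in 2 of 4 mutant (RORasg/sg) and 5 of 5 WT hearts. Its groups overlapped, with a log2 difference of -1.08 (SE 0.775, limma adjusted p = 0.444). All 3 probes carry the same transcript accession, and where each lies against the staggerer deletion is not known here, so the values describe transcript signal and do not by themselves check the genotype.

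Nr1d1, the gene of REV-ERBalpha, was lower on average in RORasg/sg hearts on all 3 of its probes. On its brightest probe, A_52_P130952, RORasg/sg hearts 1 to 4 gave deposited signals of 3577, 170, 316 and 405, against 5415, 5737, 4846, 1533 and 4262 in WT hearts 1 to 5. RORasg/sg 2, 3 and 4 lay below every WT heart, while RORasg/sg 1 lay above WT 4, so the groups overlapped by that 1 pair. Scaled values averaged 0.44 ± 1.32 in RORasg/sg hearts and 2.77 ± 0.543 in WT hearts (SD, n = 4 and n = 5), 5.05-fold less. The log2 difference was -2.34 (SE 0.604, 95% interval -3.66 to -1.02, limma adjusted p = 0.315), which did not pass the threshold.

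The other probes of Nr1d1 gave smaller differences. Probe A_51_P223776 read 429, 47.2, 95.6 and 208 in RORasg/sg hearts 1 to 4, against 725, 480, 583, 504 and 457 in WT hearts 1 to 5. On this probe WT 4 was not low: after scaling it was the highest of the WT hearts, and 3 of 4 RORasg/sg hearts lay below the lowest WT heart. The log2 difference was -1.37 (SE 0.522, limma adjusted p = 0.355). Probe A_52_P130961 read 577, 23.1, 49.7 and 224 in RORasg/sg hearts, against 746, 751, 658, 90.2 and 555 in WT hearts, with a log2 difference of -1.46 (SE 0.813, limma adjusted p = 0.402). There WT 4 and RORasg/sg 2 and 3 were the low hearts, and 2 of the 4 RORasg/sg hearts lay above WT 4.

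Nr1d2, the gene of REV-ERBbeta, had deposited signals that overlapped between the groups. They were 3491, 5173, 4079 and 3658 in RORasg/sg hearts 1 to 4, against 4022, 4562, 3150, 2974 and 3790 in WT hearts 1 to 5. RORasg/sg 2 lay above every WT heart before scaling, and scaling raised RORasg/sg 3 and 4, also on dimmer arrays, above them too. The scaled mean was 3.37 ± 0.858 in RORasg/sg hearts and 2.65 ± 0.214 in WT hearts (SD, n = 4 and n = 5). The log2 difference of 0.72 (SE 0.435, 95% interval -0.23 to 1.67) did not pass the threshold (limma adjusted p = 0.410), and without scaling it was 0.15. RORasg/sg 1, on a brighter array, was the lowest of all 9 hearts after scaling.

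Rorb, the ROR of brain and retina, gave a weak signal in every heart. Probe A_52_P662179 read 70.1, 62.1, 63.1 and 105 in RORasg/sg hearts 1 to 4, against 158, 143, 104, 43.5 and 80.6 in WT hearts 1 to 5, and was well above background on all 9 arrays. Neither group stood above the other, with scaled means of -2.41 ± 0.888 in RORasg/sg hearts and -2.59 ± 0.492 in WT hearts (SD, n = 4 and n = 5). The log2 difference of 0.18 (SE 0.499, 95% interval -0.91 to 1.27, limma adjusted p = 0.828) leaves room for a change of about that interval in either direction. The other probe, A_52_P74320, read 5.42 to 23.9 in RORasg/sg hearts and 7.93 to 14.4 in WT hearts, and was called above background in 2 of 4 mutant and 1 of 5 WT hearts.

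**Figure D1:**
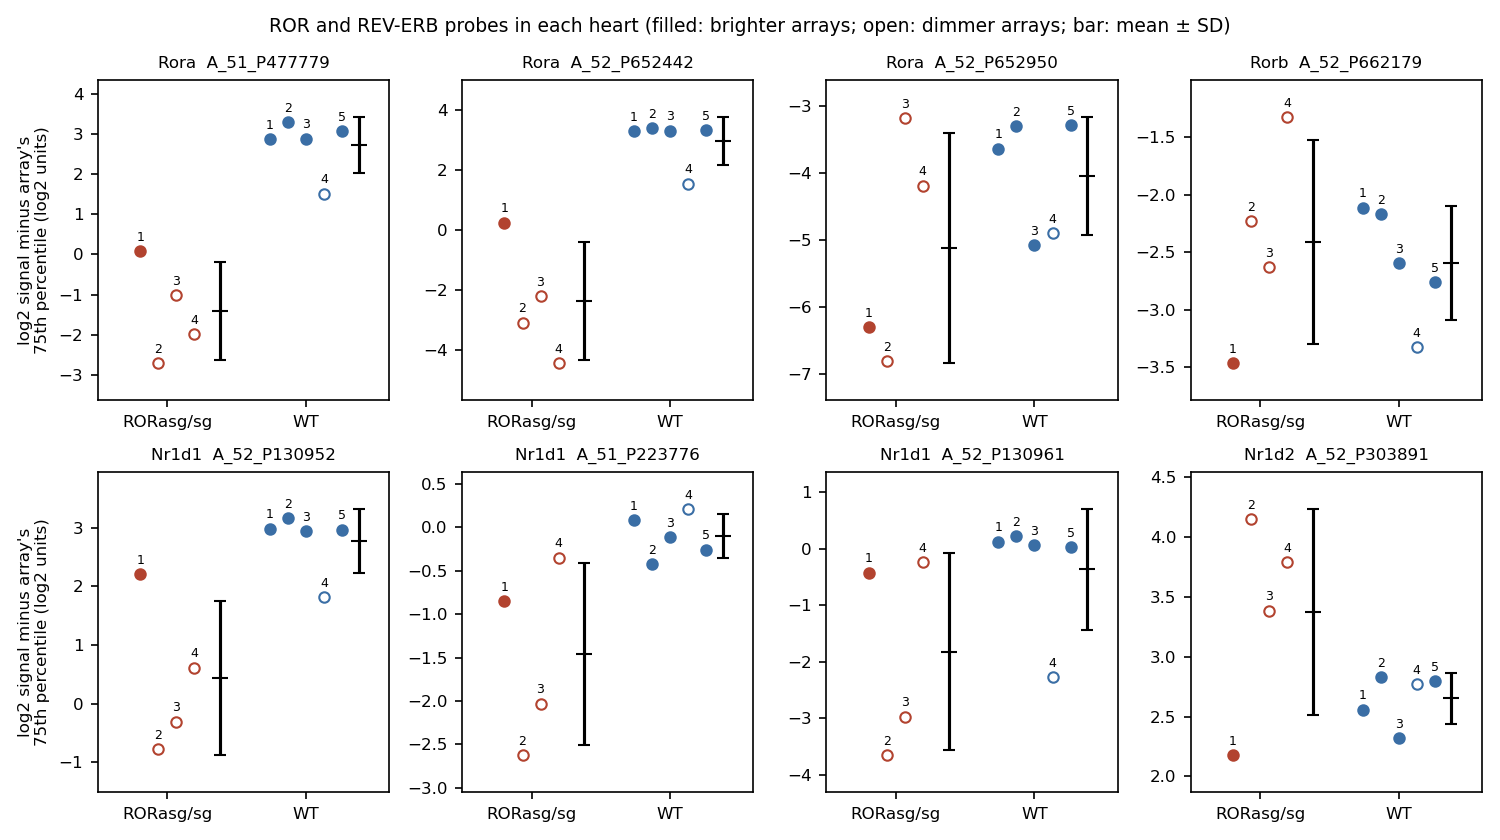
Log2 signal of each tested ROR and REV-ERB probe in each heart, relative to the 75th percentile of its array, with RORasg/sg hearts left of WT hearts, replicate numbers above the points and the mean ± SD beside each group. On both bright Rora probes every RORasg/sg heart lies below every WT heart, with WT 4 (open) the lowest WT heart, whereas on the Nr1d2 probe the 3 RORasg/sg hearts on dimmer arrays lie above all WT hearts and RORasg/sg 1 below them.

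Among the 8 tested probes 0 passed the threshold in either direction, where 0.00275% of all tested probes were called lower (1 probe) and 0% higher in limma. At an unadjusted p under 0.05, 4 of the 8 were lower, the 2 bright Rora probes and 2 of Nr1d1, and 0 were higher, against 8.27% of all tested probes lower and 4.51% higher. Both bright Rora probes were below every WT heart in every RORasg/sg heart, which held for 1.83% of all tested probes, and 0 of the 8 were above every WT heart in every RORasg/sg heart (1.23% of all).

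The bright Rora probes and the Nr1d1 probes were lower in RORasg/sg hearts within the brighter and within the dimmer arrays, whereas the dim Rora probe, Rorb and Nr1d2 differed in sign between them. Within the brighter arrays, RORasg/sg 1 read 0.083 on Rora probe A_51_P477779, against 2.87 to 3.29 in the 4 WT hearts, a difference of -2.94. For Nr1d1 probe A_52_P130952 it read 2.21, against 2.94 to 3.16, a difference of -0.80. Within the dimmer arrays the 3 RORasg/sg hearts differed from WT 4 by -3.42 on that Rora probe and by -1.97 on that Nr1d1 probe. Both strata hold a single heart of one group, so neither has a replicate check on that side.

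For Rorb probe A_52_P662179 the difference was -1.05 within the brighter and 1.26 within the dimmer arrays, and for Nr1d2 it was -0.45 within the brighter arrays and above 0 within the dimmer ones. The all-probe median also had opposite signs in the same arrays, and the difference between the strata was not tested. In the brighter arrays all 8 tested probes were lower in RORasg/sg 1 than the mean of the WT hearts. The median of all tested probes was also below 0 there, at -0.27, so a lower value is not particular to these probes. The share of all probes that were lower was not counted. Within slide 1 (RORasg/sg 1 and 2, WT 1 and 2) and slide 2 (RORasg/sg 3 and 4, WT 3 and 4), Rora probe A_51_P477779 differed by -4.40 and -3.70, and Nr1d1 probe A_52_P130952 by -2.36 and -2.22. Rorb differed by -0.70 and 0.98 on the same slides.

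**Figure D2:**
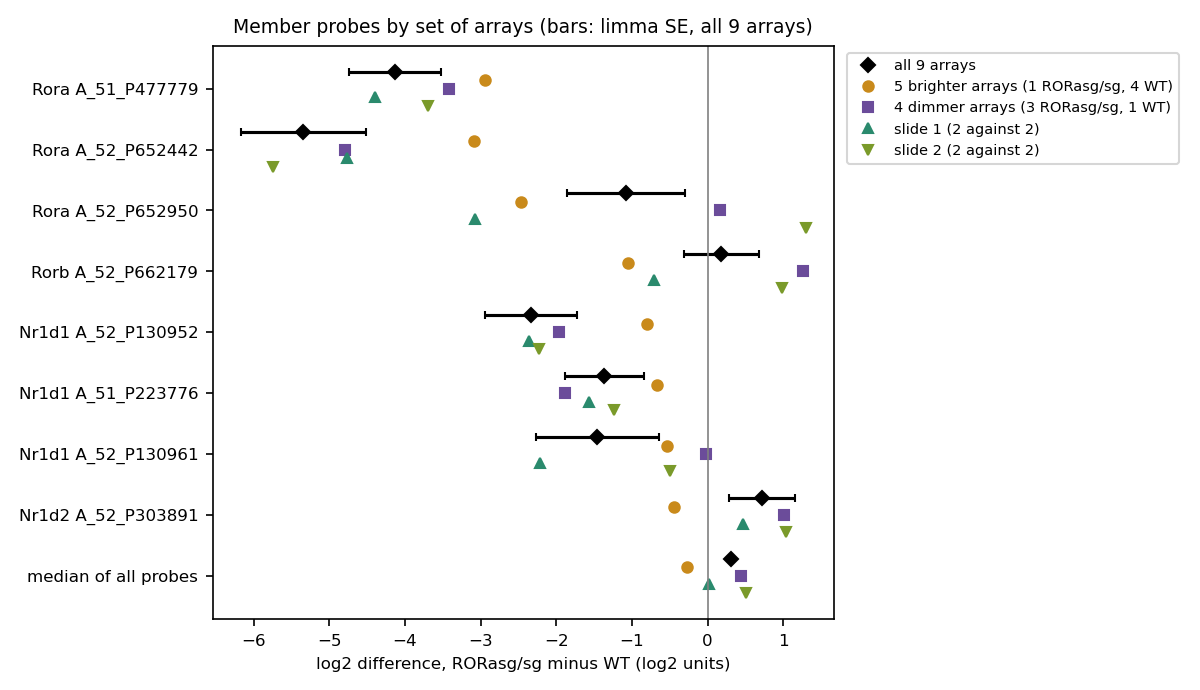
Log2 difference, RORasg/sg minus WT, of each tested member probe over all 9 arrays (with limma SE) and within the brighter arrays, the dimmer arrays and each slide that holds both groups, with the median of all tested probes at the bottom. The bright Rora probes and the 3 Nr1d1 probes lie below 0 in every set, although Nr1d1 probe A_52_P130961 is at -0.018 in the dimmer arrays, while Rorb and Nr1d2 lie on both sides of 0.

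The calls on these genes changed with the arrays used and with their weights. RORasg/sg 1 was the RORasg/sg heart nearest to WT. Without it, limma called 4 of the 8 probes lower and 1 higher, in a fit that called 11.5% of all tested probes lower and 23.5% higher. Rora was then at -4.63 (adjusted p = 0.00103), Nr1d1 at -2.93 (adjusted p = 0.00391) and Nr1d2 at 1.12 (adjusted p = 0.0206). With such shares called, a call of 1 gene in that fit says little about it. Array weights, estimated from the spread of each array, called 5 of the 8 lower and 1 higher, in a fit that called 19.6% of all probes lower and 29.9% higher, and without scaling between arrays 0 members were called, where 0.011% of all probes were called lower. In the 5 brighter arrays, where RORasg/sg 1 is the lone RORasg/sg heart and is assumed to vary like the WT hearts, both bright Rora probes were called lower, where 2.37% of all probes were, and 0 members were called higher (1.34% of all). Rora had an adjusted p of 0.00113 there and Nr1d1 of 0.0523.

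**Figure D3:**
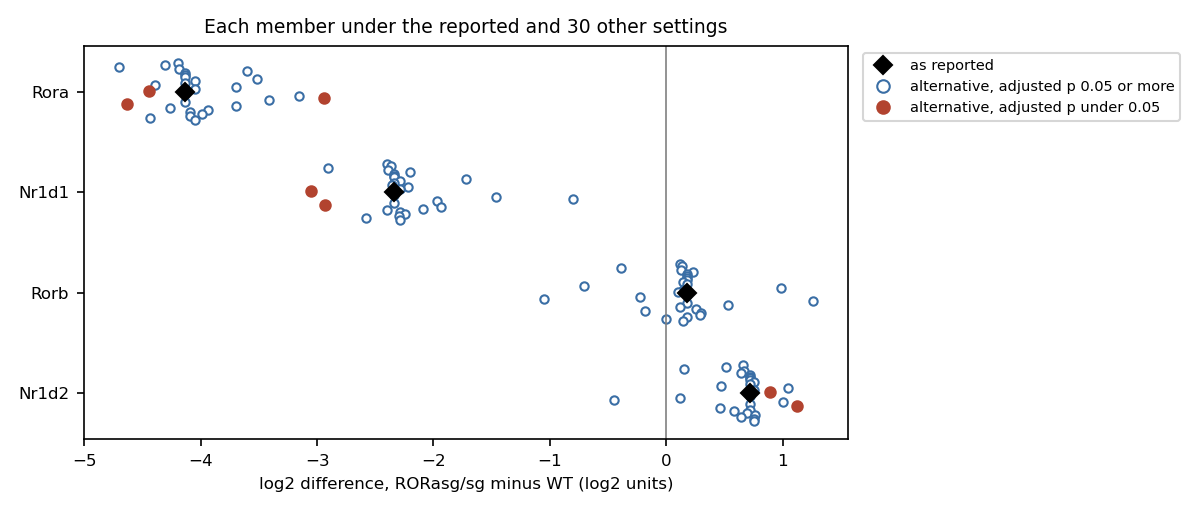
Log2 difference, RORasg/sg minus WT, of the brightest tested probe of each gene as reported (diamond) and under 30 other settings (circles, filled where the limma adjusted p was under 0.05). Rora stays between -4.70 and -2.94 and Nr1d1 between -3.05 and -0.80, while Rorb and Nr1d2 cross 0.

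Genes whose profile over the 9 hearts was nearest to each member were found by the root mean square difference of values centred on each gene's own mean, among 15232 named genes well above background on all arrays. For Rora these were Cd74, Thap12 and Cgref1, at 0.804, 0.804 and 0.824 log2 units, where the median gene was at 2.56. They differed by -3.03, -3.08 and -3.14 between the groups. For Nr1d1 they were Tbp, Arf4 and Rraga, at 0.236, 0.245 and 0.254, where the median gene was at 1.84. Nr1d2 was nearest to Pdik1l, Rhox13 and Slc25a17 (0.107, 0.113 and 0.121, median gene 0.771), and Rorb to Padi6, Gorab and Ppil6 (0.234, 0.238 and 0.275, median gene 0.890). The profile of Nr1d1 had closer neighbours, relative to its own spread of 1.43, than that of Rora, whose spread was 2.22.

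Clock genes with a described ROR and REV-ERB element had differences of both signs. Of 6 measured, 0 passed in either direction in limma, 1 was lower and 0 higher at an unadjusted p under 0.05, and the median difference was 0.43, against 0.31 for all probes. For this list and those below, the shares of all tested probes at that p were 8.27% lower and 4.51% higher. Arntl, the gene of BMAL1, read -2.82 ± 1.32 in RORasg/sg hearts and -3.89 ± 0.347 in WT hearts (SD, n = 4 and n = 5), a difference of 1.07 (SE 0.586, limma adjusted p = 0.40). It was -0.70 within the brighter and 1.21 within the dimmer arrays, and 0.83 and 1.23 within slides 1 and 2. Npas2, a partner of BMAL1, differed by 0.71 and Nfil3, a repressor of D-box genes, by 0.49, while Clock differed by 0.37. Cry1, a repressor of the clock, differed by -1.34 and was called above background in 3 of 4 RORasg/sg hearts.

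Among clock genes driven mainly through E-boxes, 8 had lower and 2 higher means in RORasg/sg hearts. Of 10 measured, 0 passed, 4 were lower and 1 higher at an unadjusted p under 0.05, and the median was -0.74. Dbp, a clock output factor, had all RORasg/sg values below all WT values, as did 1.83% of all tested probes. It was at 2.62 ± 1.08 in RORasg/sg hearts and 4.13 ± 0.270 in WT hearts (SD, n = 4 and n = 5), a difference of -1.51 (SE 0.484, limma adjusted p = 0.322). The gap was narrow, with the highest RORasg/sg heart at 3.63 and the lowest WT heart at 3.74. Hlf and Tef, relatives of Dbp, differed by -2.48 and -2.13, and Per3 by -2.39. Within the brighter arrays Dbp, Hlf, Tef and Per3 were at -0.47, -0.85, 0.39 and -0.096. Within the dimmer ones they were at -1.97, -3.98, -1.50 and -2.96. Per2 differed by 1.70 on the probe used and by -1.99 on its other probe. Per1, Cry2, Bhlhe40, Bhlhe41 and Ciart differed by -0.11, -0.72, -0.75, -0.69 and 0.50. The median of this group was -0.13 within the brighter and -0.21 within the dimmer arrays. The probes of Per3 and Cry2 were called above background in 3 of 4 RORasg/sg hearts.

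**Figure D4:**
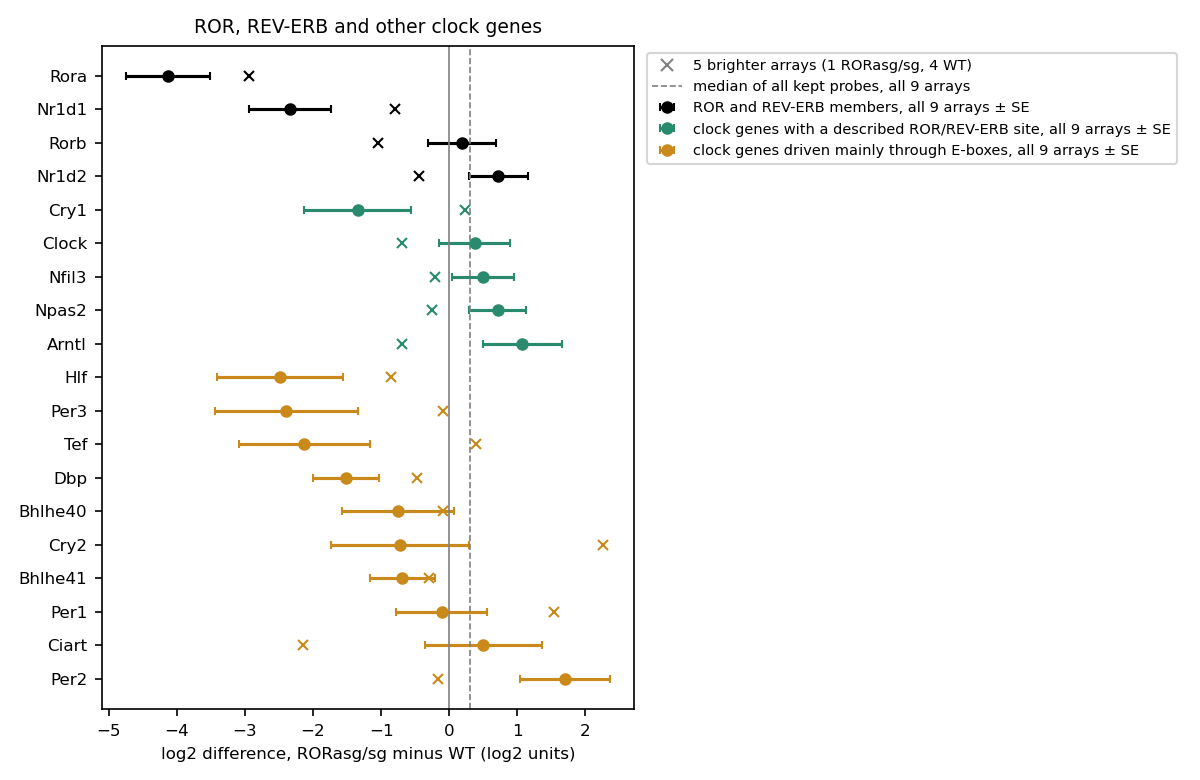
Log2 difference, RORasg/sg minus WT, of the brightest tested probe of each member and of the other clock genes, over all 9 arrays (points with limma SE) and within the 5 brighter arrays (crosses). Rora and Nr1d1 are below 0 in both, whereas Arntl, Npas2, Nfil3, Clock and Nr1d2 are above 0 over all arrays and below 0 within the brighter ones.

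Transcripts of the proteins through which the receptors act were measured next. Of the 6 genes of the REV-ERB corepressor complex, 0 passed in limma, 1 was lower and 0 higher at an unadjusted p under 0.05, and the median was -0.82. Ncor1, the corepressor itself, also had all RORasg/sg values below all WT values, as did 1.83% of all tested probes. It was at 0.63 ± 2.37 in RORasg/sg hearts and 3.04 ± 0.176 in WT hearts (SD, n = 4 and n = 5), a difference of -2.41 (SE 0.876, limma adjusted p = 0.345). For Ncor1, 3 more probes differed by -1.25 to -0.56. Hdac3, the deacetylase of the complex, differed by -0.86 and Tbl1xr1 by 0.72. For Tbl1xr1 every RORasg/sg heart was above every WT heart, as for 1.23% of all tested probes. Of 8 ROR coactivators, 0 passed, 2 were lower and 0 higher at an unadjusted p under 0.05, and the median was -0.042. Ncoa3 differed by -1.46 and Ppargc1b by -1.66, and Ppargc1a, the gene of PGC-1alpha, by 0.76 and Ncoa1 by 1.06. Within the brighter arrays Ncoa3, Ppargc1b, Ppargc1a and Ncoa1 were at -0.64, 0.39, -0.15 and -0.047. Within the dimmer ones they were at -2.35, -1.57, 1.46 and 1.28.

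Enzymes that make or break the ligands came next. In heme synthesis and breakdown, 0 of 12 passed and 0 were lower or higher at an unadjusted p under 0.05 in limma, with a median of 0.53. Ppox, an enzyme late in heme synthesis, differed by 0.90 with every RORasg/sg heart above every WT heart (1.23% of all tested probes). Uros differed by 0.66 and Hmox2, a heme oxygenase, by -0.97. Within the brighter arrays Ppox, Uros and Hmox2 were at 0.61, 0.16 and 0.58, and within the dimmer ones at 0.74, -0.10 and -2.60. In sterol synthesis, 11 of 12 genes were measured, 0 passed and 0 were lower or higher at that p, with a median of 0.20. Nsdhl differed by 1.42, Ch25h, which makes an oxysterol, by 1.16, Sult2b1, detected in 3 of 4 mutant hearts, by 0.84 and Cyp51 by 0.64. Within the brighter arrays Nsdhl, Ch25h, Sult2b1 and Cyp51 were at -0.65, -0.18, -0.32 and -0.21. Within the dimmer ones they were at 4.01, 1.68, 0.79 and 0.72.

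Genes of the turnover of these receptors had a median of -0.21, with 0 of 11 passing and 2 lower and 0 higher at an unadjusted p under 0.05. Dcaf1 differed by -2.29, Gsk3b by -2.81 and Fbxw7 by -0.93, and the Gsk3b probe was called above background in 3 of 4 RORasg/sg hearts. Within the brighter arrays these 3 were at 0.42, 1.28 and 0.086, and within the dimmer ones at -2.07, -3.56 and -1.13. Of genes described as targets outside the clock, 17 of 18 were measured, 0 passed, 3 were lower and 2 higher at that p, and the median was -0.17. Srebf1, the lipogenic regulator, differed by -3.19, Avpr1a, a vasopressin receptor, by -3.48 and Nfkbia, the NF-kappaB inhibitor, by -2.00, while Lpl, the lipoprotein lipase, differed by 0.94. The Avpr1a probe was called above background in 1 of 4 RORasg/sg and 5 of 5 WT hearts and the Srebf1 probe in 3 of 4 and 5 of 5, so the size of these differences is uncertain. Srebf1, Avpr1a, Nfkbia and Lpl were at -0.19, 0.026, -0.17 and -0.60 within the brighter arrays, and at -3.69, -3.32, -4.50 and 1.51 within the dimmer ones. Among 15 other receptors of the same nuclear receptor family, 0 passed, 1 was lower and 0 higher at that p, and the median was 0.28. Nr1h3, the gene of LXRalpha, differed by -1.52, Thrb by -0.93, Vdr by 1.06 and Rarg by 0.84. Within the brighter arrays Nr1h3, Thrb, Vdr and Rarg were at -0.36, -0.38, -0.36 and -0.059. Within the dimmer ones they were at -1.06, -0.18, 1.63 and 0.31.

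Probes of 1 gene did not always share a sign, so a gene's difference is that of the probe used. Besides Per2, another probe had the opposite sign for Clock (-1.46 and -1.30 on its 2 other probes), Nfil3 (-2.44), Cry1 (0.16), Cry2 (0.10) and Tef (up to 1.20). The same held for Tbl1xr1, Ncoa3, Cyp51, Nsdhl, Dcaf1, Lpl, Thrb and Rarg. Among the members, the 3 probes of Rora and the 3 of Nr1d1 shared a sign over all arrays.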

How the data were processed

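Hearts of 4 RORasg/sg and 5 WT mice were each hybridised to a single array. Per the labels' protocols, 70 ng of total RNA was amplified (NuGEN Ovation Pico WTA) and 5 ug of product labelled with Cy3. Per the file headers, the authors read the arrays (design 014868, grid build mm9) with Feature Extraction 12.0.0.7, protocol GE1_1200_Jun14, which the submitters' processing notes give as version 12. The deposited intensity is the background-subtracted processed signal of each spot, on a linear scale, with arrays left unscaled. The series-wide values the authors deposited held the same intensity (largest relative difference 0 over 45018 features), with column medians of 126, 55.4, 81.1 and 55.2 for RORasg/sg 1 to 4 and 139, 118, 110, 80.2 and 90.7 for WT 1 to 5. 

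Noncontrol spots (43379) without an outlier flag (758 flagged) were put on the log2 scale minus each array's 75th percentile, and spots of a probe were averaged. None was saturated. Arrays had 80.7% to 87.8% of probes called well above background. Probes were named by accession through RefSeq's genes of GRCm38.p6 (28223 of 41174 matched). Probes well above background on at least 4 arrays were fitted with limma 3.58.1 (lmFit, eBayes with trend, R 4.3.3) with Benjamini-Hochberg adjustment at 0.05. Plots used matplotlib 3.10.9 under Python 3.11.15. A gene is represented by its tested probe with the highest mean. Intervals are limma's 95% intervals, so precision is limited by how many arrays there were.

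The members, the lists and the alternatives were chosen with earlier results of these data known. All member probes, all genes of the 2 clock lists, the 4 genes of smallest p in each other list and the 3 nearest genes per member are named, except for a few list genes that are not reported here; lists are counted whole. The alternatives were other scalings, normexp (offset 50), filters on dim probes, ways to choose a gene's probe, blocks for the slide or for the replicate number, array weights, eBayes settings, sets of arrays by brightness and leaving out each array. Hearts came from separate mice. The main fit did not pair hearts by replicate number. Deviations of same-numbered hearts correlated at 0.0747, -0.01, -0.344 and 0.399 for numbers 1 to 4. Hearts of different numbers were not compared, so these values cannot show whether the numbers pair the hearts.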

Additional observations from a re-analysis of the deposited data

Results flagged for a closer look

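In each group, a heart was marked when its gap to the nearest heart, as a share of the group's range, was above Dixon's 95% value. Of 98 groups examined, 19 were marked, and 12 of the 19 were WT 4, a dimmer array. For normal values the rule marks about 1 group in 20. These probes share arrays and many were picked by p, so no comparison with chance is drawn. WT 4 was the lowest WT heart for Rora on probes A_51_P477779 (1.51, next 2.87) and A_52_P652442 (1.56, next 3.31), and for Nr1d1 on probes A_52_P130952 (1.81, next 2.94) and A_52_P130961 (-2.27, next 0.022). It was also lowest for Cry1 (-3.49), Bhlhe40 (-1.75) and Nsdhl (-4.43), and highest for Hlf (4.45), Ciart (3.04), Ncoa3 (2.03), Hmox2 (4.72) and Nfkbia (4.35). Values are log2 relative to each array's 75th percentile.

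RORasg/sg 1 stood apart within its group 5 times. It was the lowest for Npas2 (-3.19, next -1.95) and the highest for Cry2 (0.072, next -4.19), Tbl1xr1 (1.77), Ppargc1b (1.21) and Nr1h3 (0.67). RORasg/sg 3 was the lowest for Bhlhe40 (-3.33) and RORasg/sg 4 the lowest for Bhlhe41 (-3.08).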

How the results depend on the processing

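Rora and Nr1d1 kept their direction under all 30 alternatives run, between -4.70 and -2.94 and between -3.05 and -0.80. Without scaling, 4 probes were called in all and Rorb was -0.39. With array weights, 18049 probes were called, with Rora at -4.45 (adjusted p = 2.14e-04), its probe A_52_P652442 at -6.01, Nr1d1 at -3.05 (adjusted p = 2.49e-04) and Nr1d2 at 0.89 (adjusted p = 0.0270). Within the 5 brighter arrays 1350 were called, Rora was -2.94, Rorb -1.05 and Nr1d2 -0.45. The number called was 0 with normexp, with only probes detected on all 9 arrays, with the mean of a gene's probes, with slide as a block, within slide 1, within slide 2, with the 75th percentile as a covariate and in the 4 dimmer arrays, where between 468 and 7078 probes had an unadjusted p under 0.05 in limma. Leaving out 1 heart gave 0 to 12752 called probes, Rora at -4.63 to -3.70, Nr1d1 at -2.93 to -1.93, Nr1d2 at 0.46 to 1.12 and Rorb at -0.18 to 0.53, with Rorb at -0.18 without RORasg/sg 4 and -0.0012 without WT 4. The largest count, 12752, was without RORasg/sg 1. With the replicate block, 0 probes were called, and Rora was -4.05, Nr1d1 -2.29, Nr1d2 0.76 and Rorb 0.14, with no member called. Rorb was -0.70 within slide 1 and -0.22 with the covariate. The dim Rora probe A_52_P652950 turned to 0.18 with normexp, 1.30 within slide 2 and 0.17 in the dimmer arrays. The cause of these changes was not tested.

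List medians that moved by more than the spread between hearts were, without scaling, ROR coactivators (-0.61), heme (-0.042), targets outside the clock (-0.74) and other receptors (-0.29), where the median of all probes was -0.26. In the brighter arrays, clock genes with a described element were at -0.47, corepressors at 0.35 and other receptors at -0.23. In the dimmer arrays, coactivators were at 0.55 and heme at -0.13. With the covariate, heme was at -0.026 and other receptors at -0.14. Corepressors were at 0.50 within slide 1 and -1.87 within slide 2. Coactivators were at 0.51 on probes above background on all arrays, clock genes with a described element at -0.69 and turnover genes at -0.94 with the mean of a gene's probes, and E-box genes at -1.95 with array weights. Of 40 named list genes, 25 turned sign within the brighter set and 5 within the dimmer set. None of the 41174 probes was saturated, and dim probes, such as A_52_P74320 of Rorb, limit what can be seen.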
